A study of Mus musculus with 6 samples.

Results

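Mitochondrial ribosomal protein genes were taken as the gene symbols that begin with Mrpl or Mrps followed by a digit and reach a mean of at least 1 FPKM (fragments scaled to the transcript's length and to the mapped total) over the 6 libraries. The rule selected 77 of the 24346 symbols in the tables, and none of the matching symbols lay below that mean. Of these genes, 48 carry Mrpl symbols, for the large subunit of the mitochondrial ribosome, and 29 carry Mrps symbols, for the small subunit. RNA sequencing had been done on 4T1 cells, a mouse mammary carcinoma line, in 3 groups of 2 libraries. The WT group was mock transfected 4T1 cells. The shRNA1 and shRNA3 groups were 4T1 cells that carried a short hairpin RNA, a different one in each group, that targets AU021063, a long noncoding RNA, and no group with a non-targeting hairpin is named in the labels. The labels do not state if replicate libraries are separate cultures, so every p-value here covers only the variation among these libraries, and that variation may be technical.

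The mitochondrial ribosome translates the few messenger RNAs encoded in mitochondrial DNA, all of which make subunits of the respiratory chain and the ATP synthase. Its ribosomal RNAs are transcribed in the mitochondrion, whereas every one of its proteins is encoded in the nucleus, made in the cytosol and imported. Some of these proteins have counterparts in the bacterial ribosome and the rest were added in the mitochondrial lineage. The 2 subunits are assembled separately and join during initiation, and the large subunit is anchored at the inner membrane, where the nascent proteins are inserted.

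Many nuclear genes for mitochondrial proteins have promoters with binding motifs of NRF1, of ETS factors such as GABP, of YY1 and of SP1. RefSeq promoter windows on GRCm38.p6, which run from 250 bases before to 50 bases after the transcription start, were available for 68 of the 77 genes. Both strands were searched for 4 motifs: NRF1 (GCGC, any 2 bases, GCGC), ETS (CCGGAAG), YY1 (AAGATGGCG) and SP1 (GGGCGG). The ETS motif ends with the letters AAG that begin the YY1 motif, so these 2 can overlap. The following 4 windows were picked after values were seen, from 2 genes that fell with both hairpins (Mrpl37, Mrps22) and 2 that rose with both (Mrpl33, Mrpl45), since each shows how close to the start a motif lies. Capitals mark YY1 in Mrpl37, ETS in Mrpl33 and Mrps22, and NRF1 in Mrpl45. SP1 matches, present in the windows of Mrpl37 and Mrps22, were left in lower case.
Mrpl37, chr4:107066817-107067116, minus strand: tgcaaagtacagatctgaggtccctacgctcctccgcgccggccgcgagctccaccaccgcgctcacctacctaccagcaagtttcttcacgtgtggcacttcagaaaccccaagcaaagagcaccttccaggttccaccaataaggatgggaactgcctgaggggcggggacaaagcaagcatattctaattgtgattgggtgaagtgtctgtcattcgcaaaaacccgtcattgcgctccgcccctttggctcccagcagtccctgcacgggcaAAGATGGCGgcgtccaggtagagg
Mrps22, chr9:98601630-98601929, minus strand: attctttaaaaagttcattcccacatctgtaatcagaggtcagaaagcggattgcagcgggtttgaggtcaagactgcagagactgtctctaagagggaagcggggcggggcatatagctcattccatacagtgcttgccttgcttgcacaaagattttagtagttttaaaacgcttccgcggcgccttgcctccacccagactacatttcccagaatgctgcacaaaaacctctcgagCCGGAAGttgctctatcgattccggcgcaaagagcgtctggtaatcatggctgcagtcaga
Mrpl33, chr5:31613701-31614000, plus strand: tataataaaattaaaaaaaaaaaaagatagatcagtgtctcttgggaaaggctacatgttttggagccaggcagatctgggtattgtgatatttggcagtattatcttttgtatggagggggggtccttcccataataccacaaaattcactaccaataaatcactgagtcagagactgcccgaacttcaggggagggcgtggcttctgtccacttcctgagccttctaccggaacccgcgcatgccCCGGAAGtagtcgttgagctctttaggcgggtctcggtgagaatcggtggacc
Mrpl45, chr11:97315466-97315765, plus strand: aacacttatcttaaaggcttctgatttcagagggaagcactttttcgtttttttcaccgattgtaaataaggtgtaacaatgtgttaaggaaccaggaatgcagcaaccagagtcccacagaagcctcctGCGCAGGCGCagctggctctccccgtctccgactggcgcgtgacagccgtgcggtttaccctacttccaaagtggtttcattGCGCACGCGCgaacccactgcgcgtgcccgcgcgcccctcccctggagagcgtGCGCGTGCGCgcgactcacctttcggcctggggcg
Counted from the first transcribed base as 1, the YY1 match of Mrpl37 begins at base 27, and its letters ATG lie inside the motif. The ETS match begins 3 bases before the start in Mrpl33 and 11 bases before it in Mrps22. Mrpl45 holds 3 NRF1 matches, which begin 120 and 38 bases before the start and at base 16 after it. None of the capitals in these 4 windows overlap.

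The ETS motif was in 25 of the 68 promoters (36.8%), against 21.8% of the 8515 tested genes that have a window and 8.86% of all 32851 windows. YY1 was in 8 (11.8%, against 3.93% and 1.40%) and NRF1 in 14 (20.6%, against 16.1% and 6.23%). SP1 was in 34 of the 68, a smaller share than the 71.7% of tested genes and above the 35.7% of all windows. At least one of ETS, YY1 and NRF1 was found in 41 of the 68 (60.3%), against 36.7% of tested genes. Of the 8 YY1 matches, 5 began within the first 30 transcribed bases, in Mrpl37, Mrpl35, Mrpl42, Mrps27 and Mrps18a. Such a match describes letters in a window and does not show that a factor binds there.

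AU021063 itself was at 1.82 and 1.67 FPKM in WT, at 1.05 and 0.572 under shRNA1, and at 0.785 and 0 (listed at 0) with shRNA3, so every knockdown library was below both WT libraries. The libraries held 10998 to 11106 symbols of at least 1 FPKM. The most frequent ratio of the low values of WT replicate 1 to those of the library, which tracks relative depth, ranged from 86.8% to 105%. All 6 epithelial markers fixed for 4T1 cells were above 0 in every library, led by Krt8 and Krt18, although Cdh1 stayed between 1.22 and 1.83 FPKM. Summed, these markers were at 931 and 964 FPKM in WT, 1110 and 1041 under shRNA1, and 750 and 747 under shRNA3. Krt8 and Krt18 carry this sum and fell with shRNA3 (-0.69 and -0.14), whereas Krt19 went from 1.79 and 1.33 FPKM in WT to 19.8 and 20.4 under shRNA1 and 12.4 and 13.2 under shRNA3, and Epcam rose over both hairpins (0.63, adjusted p = 0.00263). The geometric mean of the 6 markers was higher in each knockdown library (22.2 to 33.3 FPKM) than in WT (17.9 and 17.4). Ptprc, Cd3e and Itgam, which mark leukocytes, were listed at 0 in all libraries, while the leukocyte list summed to 6.71 and 6.76 FPKM in WT, 18.5 and 16 under shRNA1 and 28.1 and 27.7 under shRNA3, nearly all of it Cd68, a lysosomal protein gene. Of the 6 fibroblast markers Thy1 was at 0 throughout and Col1a2 and Lum at 0.062 or less, and the list summed to 59.7 to 70.8, mostly Pdgfra and Pdgfrb. Over both hairpins Pdgfra fell (-0.30, adjusted p = 5.14e-04) and Pdgfrb was not called. Col1a1, at 0.721 and 0.743 FPKM in WT, rose (0.66, adjusted p = 0.00139). The 5 endothelial markers summed to at most 0.283. Nuclear-retained RNAs (Malat1, Neat1, Xist, Meg3, Kcnq1ot1), used as a sign of RNA quality, summed to 250 and 248 in WT, 276 and 277 under shRNA1, and 189 and 179 under shRNA3. The 2 of them that passed the filter went opposite ways with shRNA3, where Neat1 fell (-0.55, adjusted p = 3.9e-05) and Malat1 rose (0.29, adjusted p = 0.00116). The part of these shifts in the results that follow was not tested.

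Levels of the 77 genes spanned from a mean of 4.22 to 242 FPKM over the 6 libraries, with a median of 29.1. The most abundant was Mrpl13, a counterpart of bacterial L13, at 276 and 271 FPKM in WT, 249 and 250 under shRNA1 and 207 and 197 under shRNA3. Next came Mrpl33 at a mean of 178 and Mrpl52 at 170 FPKM, and the highest small-subunit genes were Mrps21 at 132, Mrps16 at 65.1 and Mrps6 at 62.6. At the other end were Mrpl41 at 4.22, Mrpl19 at 4.73 and Mrpl17 at 4.83 FPKM, whose library values overlap, so that their order is within the spread. The lowest small-subunit genes were Mrps25 at 9.51, Mrps11 at 11 and Mrps31 at 13.1 FPKM.

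Together the 77 genes summed to 3162 and 3142 FPKM in WT, to 3058 and 3053 under shRNA1, and to 3002 and 2863 under shRNA3. Both shRNA3 libraries were lowest and both WT libraries highest, with no overlap between the groups. As a share of the library's sum this was 0.564% and 0.553% in WT, 0.516% and 0.524% under shRNA1, and 0.497% and 0.490% under shRNA3. In bulk RNA, fewer cells of a type and less RNA per cell cannot be told apart.

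Across both hairpins, mitochondrial ribosomal protein genes were mostly lower than in WT. Of the 77, 31 fell and 4 rose, and 42 did not pass the test (limma on log2(FPKM + 1), Benjamini-Hochberg adjusted p under 0.05 over the 11079 genes tested). This comparison sets the mean of the 2 hairpin groups against WT, so a gene can be called through 1 hairpin alone. Mrpl4, for example, counts as a fall (-0.24, adjusted p = 0.00335) although its change with shRNA3 was 0.08. Over all genes tested 25.9% were called lower and 24.1% higher, so the members' share of 40.3% lower was above, and their share of 5.19% higher below, the background. For 26 of the 77 members every knockdown library was below both of WT, against 2829 of the 11079 genes tested (25.5%). For 4 of the 77 every knockdown library was above both, against 2456 of the 11079 (22.2%). The median change of the members was -0.12 on the log2 scale, against -0.01 for all genes tested, and 60 of the 77 changes were negative. Single changes were small: the middle of the distribution, from the first to the last quartile, ran from -0.25 to -0.03. After libraries were rescaled to an equal total, 38 members were lower and 4 higher, while over all genes the share of calls that were higher went from 48.2% to 34.3%. The count of falls was 19 without WT replicate 1 (24.7% of members against 18% of genes tested) and 12 without a filter on low values (15.6% against 6.79%). With the 4 knockdown libraries fitted as 1 group 5 members fell, 6.49% of them against 6.45% of genes tested, so in that fit the members' share of falls was at the background.

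**Figure D1:**
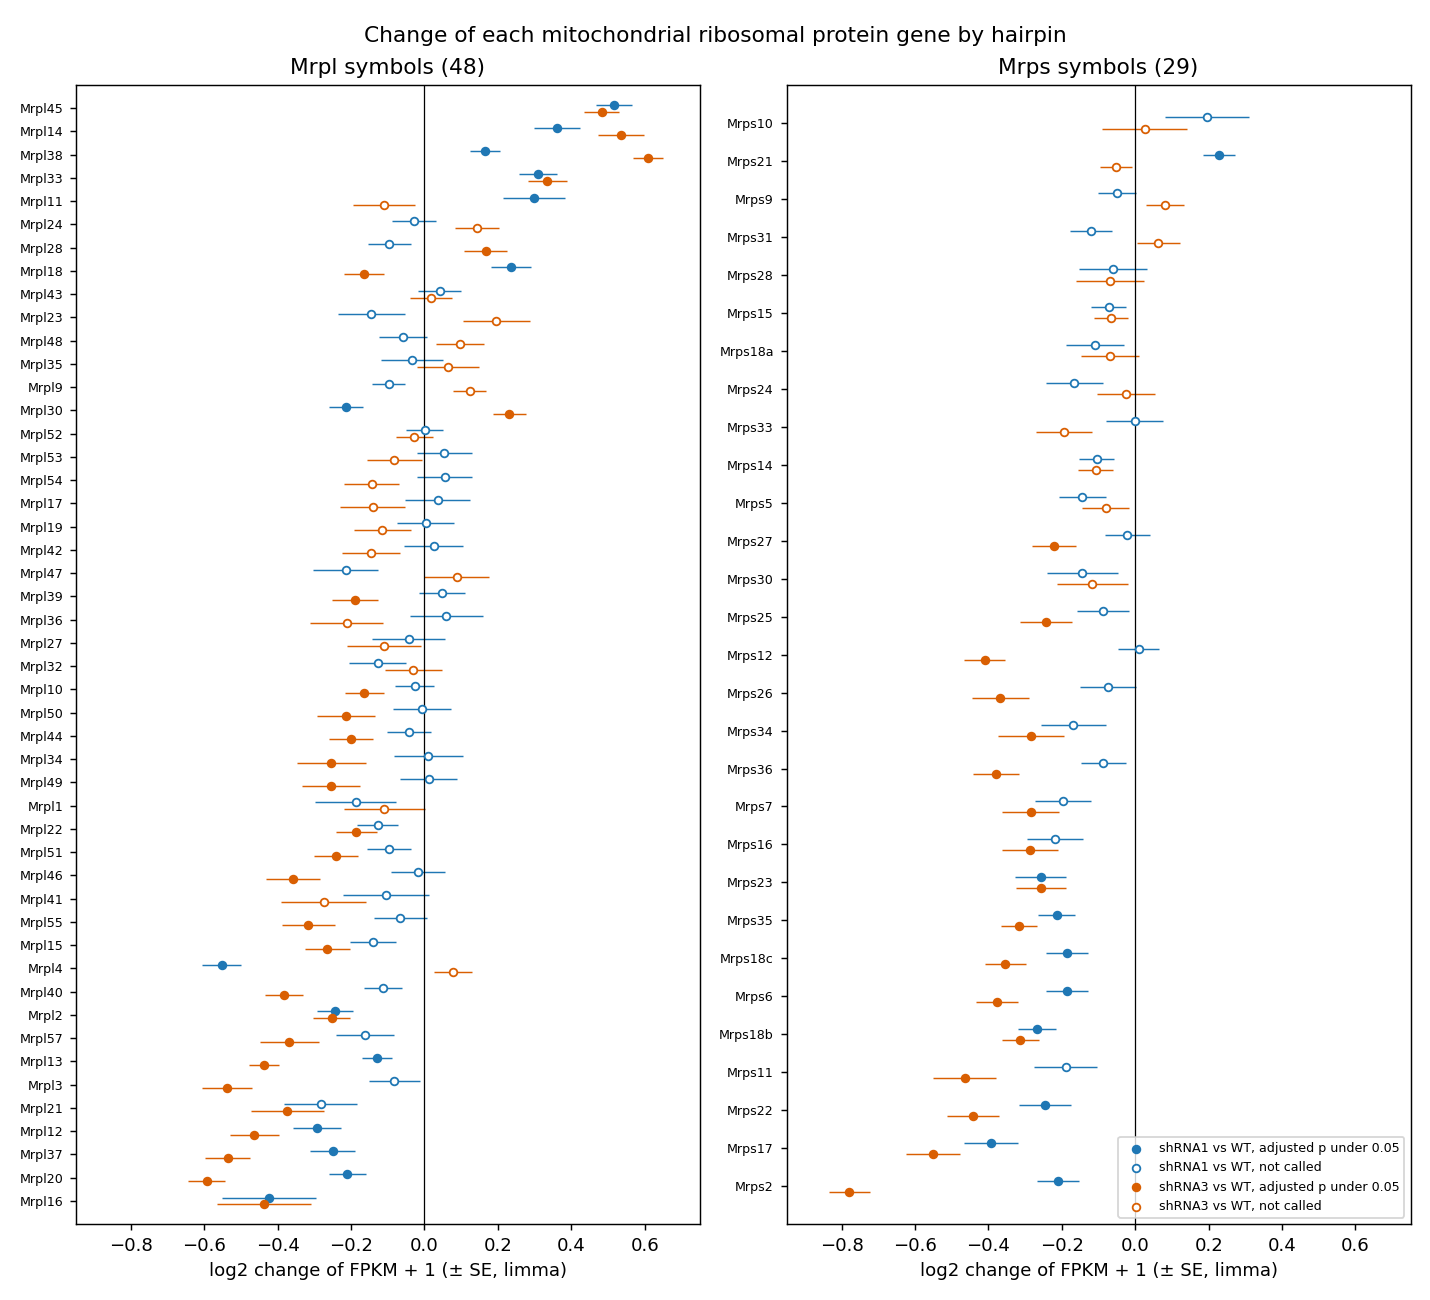
Change of each of the 77 genes with shRNA1 (blue) and shRNA3 (orange) against WT, as log2 change of FPKM + 1 with its standard error from limma on the horizontal axis and filled points for an adjusted p under 0.05. Genes are ordered by their mean change over both hairpins, with 48 Mrpl genes on the left and 29 Mrps genes on the right. Most points lie left of 0, and Mrpl45, Mrpl14, Mrpl38 and Mrpl33 are the 4 genes with filled points right of 0 for both hairpins.

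With shRNA1 16 members fell and 7 rose, against a background of 18.4% lower and 17.6% higher, and the median change was -0.10. With shRNA3 39 fell and 6 rose, against 27.8% lower and 27.4% higher, with a median of -0.19. The members' share of falls, 20.8% with shRNA1 and 50.6% under shRNA3, was thus close to the background for the first hairpin and above it for the second. The first reading depends on the scaling: with libraries rescaled to an equal total 27 members fell with shRNA1, 35.1% against 24.6% of genes tested. Without shRNA1 replicate 2, 7 fell (9.09% against 11.3%), and without WT replicate 1, 8 fell (10.4% against 11.9%). Both comparisons use the same 2 WT libraries, so their values are given side by side. Compared directly, shRNA3 was lower than shRNA1 for 20 members and higher for 8, against 20.5% and 22.0% of genes tested, with a median difference of -0.12 against 0.01 for all genes. Of the 77 genes, 14 fell with each hairpin, 4 rose with each, 2 went opposite ways and 29 passed the test with neither. Of the 11079 genes tested, 1343 fell with each, 1349 rose with each, 226 went opposite ways and 3897 passed with neither.

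**Figure D2:**
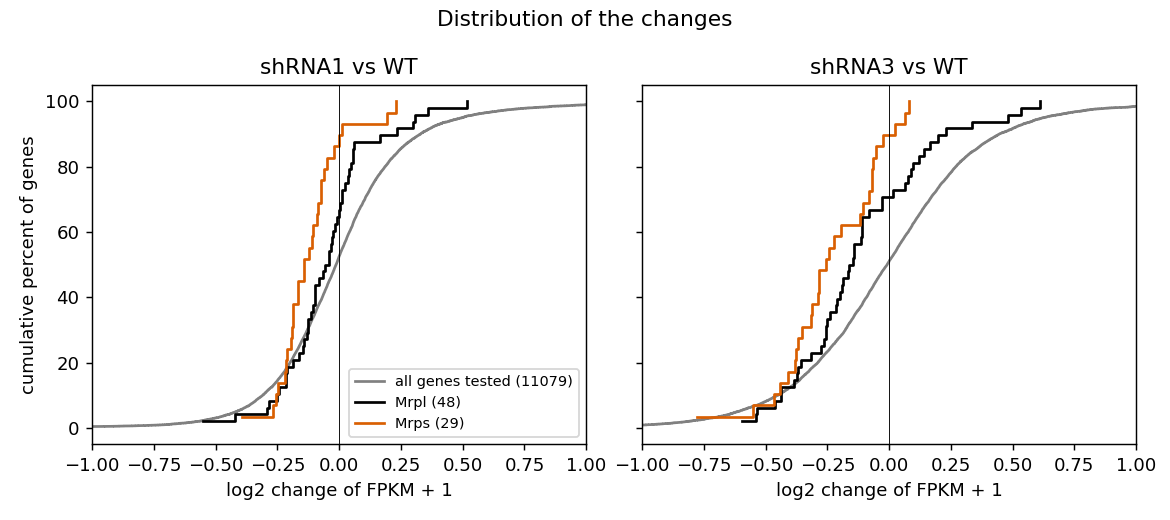
Cumulative percentage of genes (vertical axis) by log2 change of FPKM + 1 (horizontal axis) for shRNA1 (left) and shRNA3 (right) against WT, with all 11079 genes tested in grey, 48 Mrpl genes in black and 29 Mrps genes in orange. The orange line lies left of the black one over most of its range, with medians of -0.14 and -0.05 for shRNA1 and -0.26 and -0.16 for shRNA3.

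By subunit, 15 of the 29 Mrps genes (51.7%) and 16 of the 48 Mrpl genes (33.3%) fell across both hairpins, against 25.9% of genes tested, while all 4 rises were Mrpl genes. The median change was -0.20 for Mrps and -0.08 for Mrpl genes, a difference of 0.12. With shRNA1 8 Mrps genes fell (27.6%) and 1 rose, and 8 Mrpl genes fell (16.7%) and 6 rose, where 18.4% of genes tested fell, so the Mrpl share was not above the background. With shRNA3 17 Mrps genes fell (58.6%) and none rose, and 22 Mrpl genes fell (45.8%) and 6 rose, where 27.8% of genes tested fell. The lists' difference was not tested.

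The mean log2 level of each subunit, turned back to FPKM, was also taken in single libraries. For Mrps genes it was 30.6 and 30 FPKM in WT, 28.0 and 27.5 under shRNA1, and 26.1 and 24.9 under shRNA3. For Mrpl genes it was 29.1 and 29.1 in WT, 27.9 and 28.2 under shRNA1, and 27.4 and 26.2 under shRNA3. WT libraries were highest and shRNA3 libraries lowest for both subunits, and the 3 groups did not overlap. The mean log2 level of Mrpl minus that of Mrps genes was -0.07 and -0.04 in WT, -0.00 and 0.04 under shRNA1, and 0.07 and 0.07 under shRNA3, where the SD between libraries of a group was 0.0206. Every knockdown library was above both WT libraries in this difference of means, whose zero has no meaning of its own because the 2 sets hold different genes. In summed FPKM the Mrpl genes exceeded the Mrps genes in every library, with 2130 against 1032 in WT replicate 1 and 2004 against 859 in shRNA3 replicate 2. Between shRNA3 and shRNA1 the medians differed by -0.13 for Mrpl and -0.12 for Mrps genes.

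**Figure D3:**
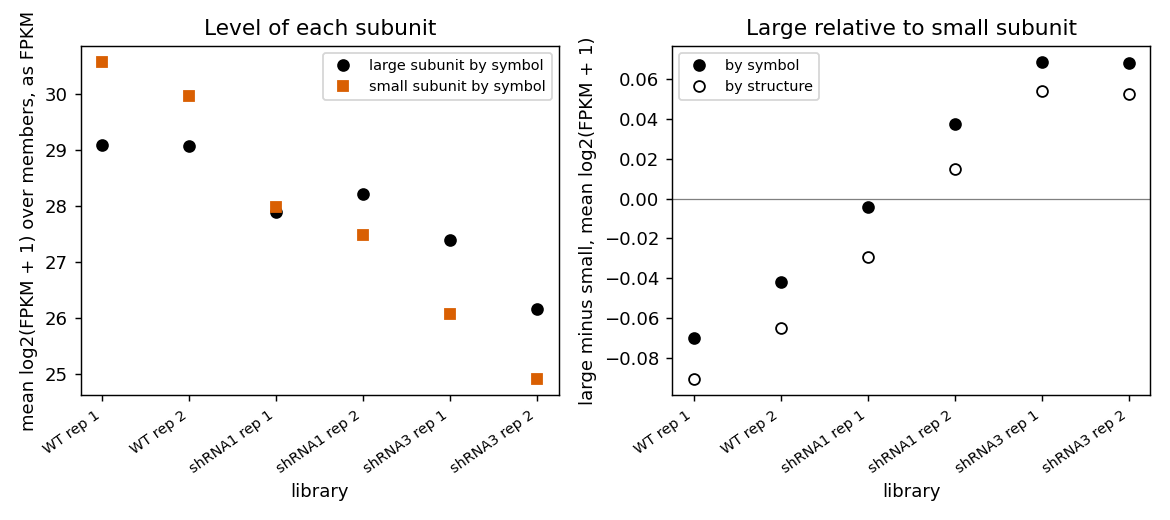
Left, mean log2(FPKM + 1) over the Mrpl genes (circles) and Mrps genes (squares) of each library, shown as FPKM on an axis that does not start at 0. Right, the difference between the 2 means on the log2 scale, by symbol (filled) and by place in the ribosome (open). Small-subunit levels go from 30.6 in WT replicate 1 to 24.9 in shRNA3 replicate 2, and the difference from -0.07 to 0.07.

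In 3 cases the symbol does not match the place of the protein. Mrps30 and Mrps18a sit in the large subunit, and Mrps36 is now known as a component of the 2-oxoglutarate dehydrogenase complex. Mrps30 was at 16 and 15.7 FPKM in WT, 13.4 and 15.1 under shRNA1 and 16.1 and 13 under shRNA3, with overlap between the groups and no call (-0.13 ± 0.0840 SE, adjusted p = 0.230). Mrps18a did not pass either (-0.09, adjusted p = 0.315). Mrps36 was at 34.8 and 32.0 in WT, 30.4 and 32.4 under shRNA1, and 26.2 and 24.7 under shRNA3, and it fell across both hairpins (-0.23, adjusted p = 0.00807) and with shRNA3 (-0.38, adjusted p = 0.00131), but did not pass with shRNA1 (-0.09, adjusted p = 0.308). Its call over both hairpins was lost without a filter, without WT replicate 1 and with the knockdown libraries as 1 group (adjusted p of up to 0.216). With the 3 genes placed by structure, 14 of 26 small-subunit genes and 16 of 50 large-subunit genes fell, and the library differences ran from -0.09 and -0.06 in WT to 0.05 and 0.05 under shRNA3.

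The 4 rises were all in the large subunit. Mrpl45 (chr11:97315716-97329920, plus strand), which lies beside the exit of the peptide tunnel and contacts the inner membrane, was at 19.1 and 18.7 FPKM in WT, 27.4 and 27.6 under shRNA1, and 27.3 and 26.4 under shRNA3. All knockdown libraries were above both WT libraries, and the mean was 1.44-fold higher (0.50 ± 0.0421 SE on the log2 scale, adjusted p = 6.59e-05). Mrpl14 (chr17:45686322-45698495, plus strand), a protein of the face between the subunits to which the assembly factor Malsu1 binds, was at 69.2 and 74.1 in WT, 96.2 and 88.5 under shRNA1, and 109 and 99.6 under shRNA3. It was 1.37-fold higher over both hairpins without overlap (0.45 ± 0.0549, adjusted p = 3.98e-04). Of its exon bases 11.2% overlap Tmem63b on the other strand, and no source used here gives the strand setting of the counting. Malsu1 itself did not pass over both hairpins (0.22, adjusted p = 0.0767).

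Mrpl38 (chr11:116131817-116138868, minus strand), a protein of the central protuberance, was at 63.0 and 65.6 FPKM in WT, 72.8 and 71.6 under shRNA1, and 98.7 and 98.5 under shRNA3. The 3 groups were apart from each other, and the rise was 1.33-fold over both hairpins (0.39 ± 0.0363, adjusted p = 1.12e-04) and larger with shRNA3 than with shRNA1 (difference 0.44, adjusted p = 1.85e-04). Its call over both hairpins did not hold in a fit of the 4 knockdown libraries as 1 group (adjusted p = 0.139). Mrpl33, a counterpart of bacterial L33, was at 156 and 148 in WT, 181 and 197 under shRNA1, and 194 and 190 under shRNA3. Its mean was 1.25-fold higher over both hairpins (0.32 ± 0.0450, adjusted p = 7.54e-04), with all knockdown libraries above WT. GENCODE places Mrpl33 at chr5:31596935-31664384 on the plus strand, a span that starts before its RefSeq window.

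**Figure D4:**
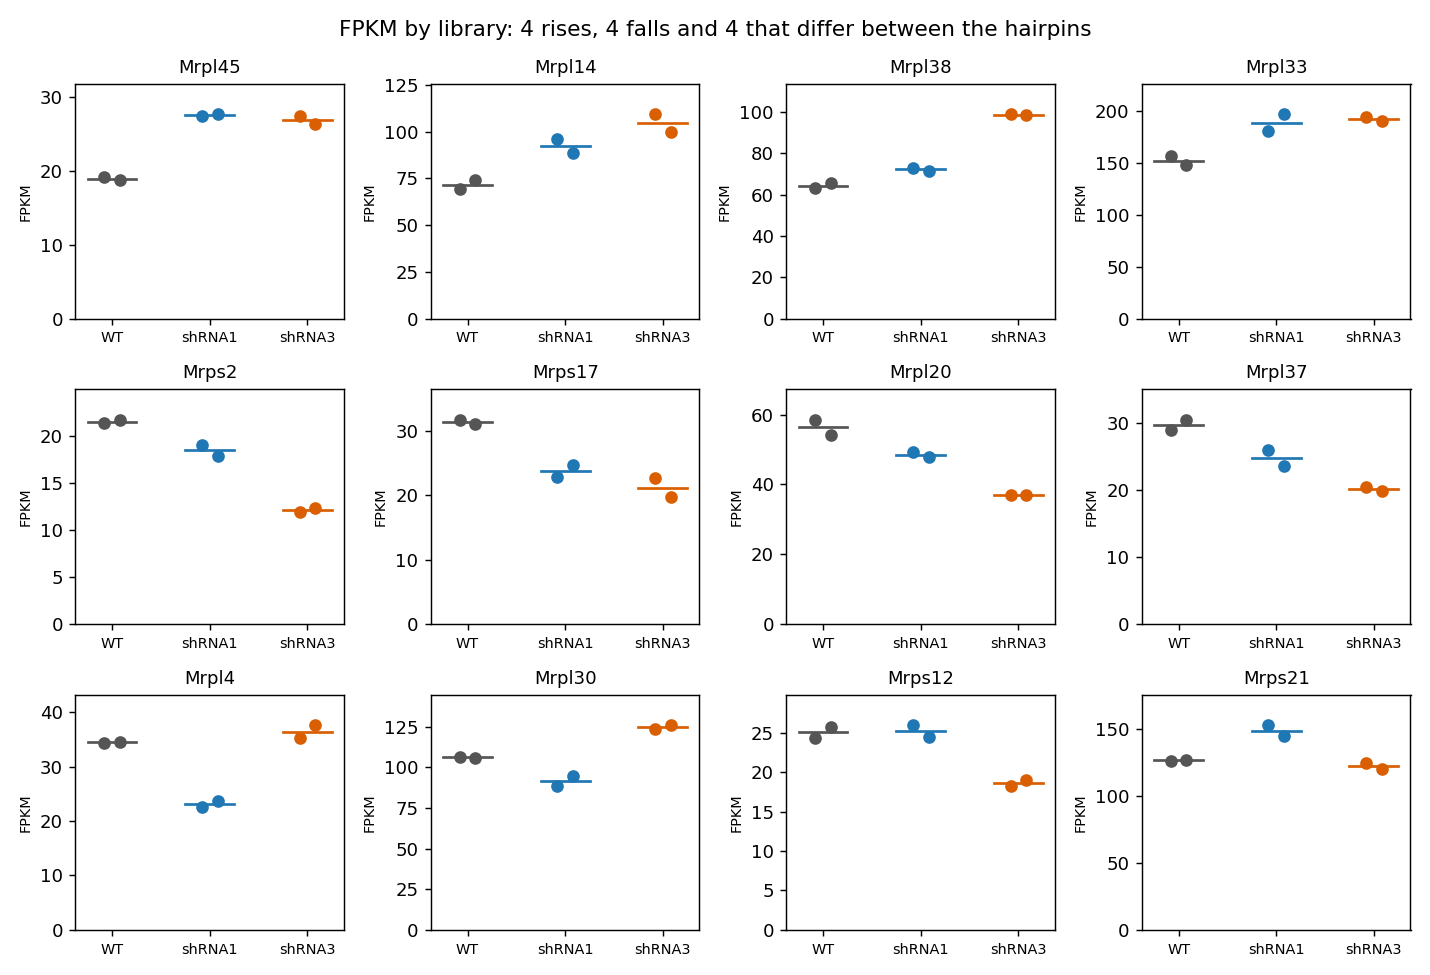
FPKM of 12 genes by library (points) with the group mean (line), for WT (grey), shRNA1 (blue) and shRNA3 (orange), on axes that start at 0. The top row shows the 4 rises, the middle row 4 of the falls and the bottom row 4 genes that differ between the hairpins, such as Mrpl4 at 22.6 and 23.7 under shRNA1 against 35.3 and 37.6 under shRNA3.

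Among the falls, Mrps2 (chr2:28468066-28471178, plus strand), a counterpart of bacterial S2, was at 21.3 and 21.7 FPKM in WT, 19.1 and 17.9 under shRNA1, and 11.9 and 12.4 under shRNA3. The groups did not overlap, and the gene was 1.41-fold lower over both hairpins (-0.49 ± 0.0491, adjusted p = 1.43e-04) and 1.77-fold lower with shRNA3. Mrps17 (chr5:129715497-129722556, plus strand), a protein of the body of the small subunit, was at 31.7 and 31.1 in WT, 22.8 and 24.6 under shRNA1, and 22.7 and 19.7 under shRNA3. It fell with each hairpin (-0.39 with shRNA1 and -0.55 under shRNA3), and the difference between them did not pass (adjusted p = 0.119). Mrps22 (chr9:98588730-98601660, minus strand), added to the small subunit in mitochondria, was at 16.5 and 18.6 in WT, 15.1 and 14.2 under shRNA1, and 12.9 and 12.3 under shRNA3, without overlap (-0.34 ± 0.0613, adjusted p = 0.00247).

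In the large subunit, Mrpl20 (chr4:155802878-155809975, plus strand), a counterpart of bacterial L20, was at 58.5 and 54.2 FPKM in WT, 49.2 and 47.9 under shRNA1, and 36.9 and 37.1 under shRNA3. Its fall of -0.40 ± 0.0435 over both hairpins (adjusted p = 2.12e-04) was larger with shRNA3 (difference -0.38, adjusted p = 8.39e-04). Mrpl37 (chr4:107055874-107066868, minus strand), a protein without a bacterial counterpart, was at 28.8 and 30.4 in WT, 25.9 and 23.6 under shRNA1, and 20.5 and 19.8 under shRNA3. It too fell over both hairpins (-0.39 ± 0.0528, adjusted p = 6.14e-04), with no overlap between the 3 groups. Mrpl12 (chr11:120484613-120489065, plus strand), the protein of the flexible stalk that recruits translation factors, was at 68.5 and 76.8 in WT, 61.7 and 56.5 under shRNA1, and 51.8 and 52.8 under shRNA3. Every knockdown library was below WT (-0.38 ± 0.0567, adjusted p = 0.00108), and 13.1% of its exon bases overlap a gene on the other strand.

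Mrpl16 (chr19:11770391-11774960, plus strand), near the peptidyl transferase centre, was at 9.59 and 8.89 FPKM in WT, 7.20 and 6.11 under shRNA1, and 7.63 and 5.62 under shRNA3. It was 1.39-fold lower over both hairpins (-0.43 ± 0.111, adjusted p = 0.0133), but its call was lost without WT replicate 1, without a filter on low values, and with the knockdown libraries as 1 group (adjusted p of up to 0.182). Mrpl21 (chr19:3282901-3292837, plus strand), a counterpart of bacterial L21, was at 21.8 and 18.1 in WT, 15.1 and 17.3 under shRNA1, and 14.4 and 15.9 under shRNA3. The libraries did not overlap, and the fall of -0.33 ± 0.0859 (adjusted p = 0.0141) was lost under the same 3 alternatives (adjusted p of up to 0.182). Fitting the knockdown libraries as 1 group also ended the call over both hairpins for Mrps2, Mrpl20, Mrpl37 and Mrps22. That of Mrps22 was lost without a filter on low values too. Calls with shRNA1 alone were lost under 4 alternatives for Mrps2, Mrps22, Mrpl16 and Mrpl38, and under 3 for Mrpl20, Mrpl37 and Mrpl12. They were lost under 1 for Mrps17, Mrpl14 and Mrpl33, and under none for Mrpl45. The other 23 falls over both hairpins ranged from -0.33 for Mrps11 to -0.16 for Mrpl22.

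The hairpins differed for 28 members, 20 lower and 8 higher with shRNA3, against 20.5% and 22.0% of genes tested. The other 49 of the 77 members did not pass, beside 6366 of the 11079 genes tested. Members thus did not differ between the hairpins more often than the background. Mrpl4, a protein along the peptide tunnel, was at 34.4 and 34.5 FPKM in WT and at 35.3 and 37.6 under shRNA3, but at 22.6 and 23.7 under shRNA1. It was low in the shRNA1 libraries, with a fall of -0.55 there (adjusted p = 1.79e-04) and 1.57-fold more in shRNA3 than in shRNA1 (0.63 ± 0.0522, adjusted p = 1.05e-04). Mrpl30, a counterpart of bacterial L30, was at 106 and 106 in WT, 88.2 and 94.4 under shRNA1, and 123 and 126 under shRNA3. It fell with shRNA1 (-0.21, adjusted p = 0.00846) and rose with shRNA3 (0.23, adjusted p = 0.00327), and the 3 groups did not overlap. Mrpl18, of the central protuberance and named after its values were seen, moved the other way, from 47.6 and 46.1 in WT to 56.6 and 54.1 under shRNA1 and 43.4 and 40.0 under shRNA3. It rose with the first (0.24, adjusted p = 0.0115) and fell with the second (-0.16, adjusted p = 0.0311). These are the 2 members called in opposite directions.

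Mrps12, a counterpart of bacterial S12 at the decoding centre, was at 24.4 and 25.8 FPKM in WT, 26 and 24.6 under shRNA1, and 18.2 and 19 under shRNA3. WT and shRNA1 overlapped, and both shRNA3 libraries were lower than all others (difference between the hairpins -0.42 ± 0.0559, adjusted p = 8.88e-04). Mrpl3, near the peptidyl transferase centre, was at 26.6 and 28.7 in WT, 25.8 and 26.3 under shRNA1, and 19.9 and 17.6 under shRNA3, and likewise was low in the shRNA3 libraries (difference -0.46 ± 0.0683, adjusted p = 0.00148). Mrpl11, a protein at the base of the stalk, was at 5.65 and 5.69 in WT, 7.17 and 7.22 under shRNA1, and 5.64 and 4.75 under shRNA3. Here the shRNA1 libraries were high (difference -0.41, adjusted p = 0.00645). Mrps21 was also higher with shRNA1, at 152 and 145 FPKM against 126 and 127 in WT and 124 and 120 under shRNA3 (difference -0.28, adjusted p = 0.00175). Mrpl23, at the tunnel exit, was at 44.0 and 46.2 in WT, 38.3 and 43.2 under shRNA1, and 56.8 and 47.1 under shRNA3. It passed only the direct comparison of the hairpins (0.34, adjusted p = 0.0185), with adjusted p = 0.250 for shRNA1 and 0.101 for shRNA3 against WT.

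Groups by position in the ribosome were formed after values were seen and are given as counts. Over all genes tested, 25.9% fell and 24.1% rose over both hairpins. In groups this small, a single gene moves the share widely. Of 4 proteins around the peptidyl transferase centre, Mrpl2, Mrpl3 and Mrpl16 fell over both hairpins and Mrpl27 did not pass, with a median of -0.28. Of 4 platform proteins of the small subunit, Mrps6, Mrps11 and Mrps18c fell and Mrps21 did not pass, with a median of -0.28. At the tunnel exit 1 of 6 rose (Mrpl45) and 1 fell (Mrpl22), and the median was -0.01. In the central protuberance 1 of 5 rose (Mrpl38) and 2 fell (Mrpl40, Mrpl46). Of 7 proteins of the head 2 fell (Mrps7, Mrps35), and of 3 body proteins 2 fell (Mrps16, Mrps17). At the stalk and its base 1 of 3 fell, as did 1 of 3 at the decoding centre and messenger RNA channel. By origin, 18 of the 45 genes with a bacterial counterpart fell and 2 rose (median -0.10), and 13 of the 32 without one fell and 2 rose (median -0.13). The shares that fell were 40.0% and 40.6%, and those that rose 4.44% and 6.25%.

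By level, 9 of the 26 least abundant members fell and none rose, 13 of the middle 26 fell and 1 rose, and 9 of the 25 most abundant fell and 3 rose. For 22 members, over 10% of exon bases overlapped another gene or over 10% of 50-base stretches were shared with one, so that reads could have been divided between genes. The largest overlaps with protein-coding genes were 69.8% for Mrps25 (Nr2c2) and 63.4% for Mrps34 (Mapk8ip3), both on the other strand, and Mrpl22 shared 22.4% of its stretches with the copy Gm6997. Among the other 55 members, 23 fell (41.8%) and 3 rose (5.45%), against 25.9% and 24.1% of genes tested, with a median of -0.12.

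By promoter motif, 12 of the 25 members with the ETS motif fell over both hairpins and 1 rose, against 14 falls and 2 rises among 43 without it. With SP1 18 of 34 fell and 1 rose (median -0.18), and without it 8 of 34 fell and 2 rose (median -0.08). Of the 14 with NRF1 3 fell (Mrpl12, Mrpl57, Mrps26) and 2 rose (Mrpl14, Mrpl45), and of the 8 with YY1 2 fell (Mrpl37, Mrps11) and none rose. Against 25.9% of genes tested, the share that fell was 48% with ETS, 32.6% without it, 52.9% with SP1, 23.5% without it, 21.4% with NRF1 and 25% with YY1. It was 42.6% without NRF1 and 40.0% without YY1. The shares without SP1, with NRF1 and with YY1 lay near the background, and a single gene moves a share of 14 or 8 genes widely. These counts were not compared by a test.

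A start that lies head to head with that of another protein-coding gene, within 1000 bases, was found for 18 of the 77 genes (23.4%), against 11.3% of the tested protein-coding genes and 6.79% of all of them. One such pair is Mrps12 with Sars2, the mitochondrial seryl-tRNA synthetase, with starts 172 bases apart. Sars2 was not called over both hairpins (0.01, adjusted p = 0.956), where Mrps12 fell (-0.20, adjusted p = 0.0101). That fall is one with shRNA3 (-0.41), beside 0.01 with shRNA1, and its call over both hairpins was lost under 3 alternatives (adjusted p of up to 0.394). Of the 16 partners that passed the filter 6 fell and 2 rose (37.5% and 12.5%, against 25.9% and 24.1% of genes tested). The rises were Fau, the partner of Mrpl49, and Ncapd2, the partner of Mrpl51, which fell itself (-0.17).

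A few mitoribosomal proteins have other symbols. Of 6 measured, Dap3, a GTP-binding protein of the small subunit, rose (0.24 ± 0.0488, adjusted p = 0.00453), from 13.4 and 12.7 FPKM in WT to 15.3 and 15.1 under shRNA1 and 15.8 and 16.4 under shRNA3. Ptcd3 of the small subunit (-0.22, adjusted p = 0.0383), Gadd45gip1 (-0.31, adjusted p = 0.0151) and Ict1 (-0.23, adjusted p = 0.00548), both of the large subunit, fell over both hairpins, but none of the 3 passed with shRNA1 alone. With shRNA1 the changes were -0.03, -0.18 and -0.10, and with shRNA3, where each fell, -0.42, -0.44 and -0.36. The difference between the hairpins passed for Ptcd3 (adjusted p = 0.00837) and Ict1 (adjusted p = 0.00732) and not for Gadd45gip1 (adjusted p = 0.0554). Chchd1 (-0.12, adjusted p = 0.0896) and Aurkaip1 (-0.13, adjusted p = 0.336) of the small subunit did not pass.

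Of 26 tested assembly factors of the mitochondrial ribosome 11 fell and 1 rose over both hairpins, with a median of -0.14. The shares were 42.3% lower and 3.85% higher, against 25.9% and 24.1% of genes tested. Mettl17, which acts on the small subunit, was at 10.1 and 9.64 FPKM in WT, 6.20 and 5.74 under shRNA1, and 4.93 and 4.79 under shRNA3. It was 1.82-fold lower without overlap (-0.77 ± 0.0614, adjusted p = 5.26e-05). Trub2, a pseudouridine synthase of mitochondrial RNA, fell as well (-0.72 ± 0.0762, adjusted p = 1.91e-04). The rise was Afg3l2 (0.23, adjusted p = 0.00233), a protease that processes Mrpl32.

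Of 19 factors of mitochondrial translation 6 fell and 1 rose (Gatc, 0.17, with adjusted p = 0.537 for shRNA1 alone), with a median of -0.09. Falls were 31.6% and rises 5.26% of them, against 25.9% and 24.1% of genes tested. Lrpprc, which stabilises mitochondrial messenger RNAs, was at 12.4 and 14.1 FPKM in WT, 10.9 and 11.6 under shRNA1, and 8.17 and 8.28 under shRNA3 (-0.42 ± 0.0632, adjusted p = 0.00106). Pdf, which removes the formyl group from new mitochondrial proteins, fell with shRNA3 (-0.71, adjusted p = 1.33e-04) and did not pass with shRNA1 (-0.08, adjusted p = 0.416), a difference between the hairpins of -0.63 (adjusted p = 4.63e-04). Oxa1l, which inserts them into the inner membrane and binds the ribosome there, was singled out after its values were seen. It was at 35.5 and 37.6 in WT, 22.7 and 21.9 under shRNA1, and 51.9 and 50.2 under shRNA3, so it fell with shRNA1 (adjusted p = 5.23e-05) and rose with shRNA3 (adjusted p = 1.72e-04), as Mrpl30 did.

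Of 16 mitochondrial aminoacyl-tRNA synthetases 4 fell (Ears2, Rars2, Tars2, Yars2) and 2 rose, Lars2 among them, with a median of -0.00. With shRNA1 alone 1 fell and 1 rose (6.25% each, against 18.4% and 17.6% of genes tested). With shRNA3 5 fell and 3 rose (31.25% and 18.75%, against 27.8% and 27.4%). Ears2 changed by -0.51 over both hairpins (adjusted p = 0.00686), and by -0.39 with shRNA1 (adjusted p = 0.0507). Lars2, the leucyl enzyme, was at 152 and 307 FPKM in WT, 389 and 350 under shRNA1, and 475 and 394 under shRNA3 (0.88 ± 0.230, adjusted p = 0.0139, and adjusted p = 0.0548 with shRNA1 alone). All knockdown libraries were above both WT libraries, but WT replicate 1 lay far below WT replicate 2. Of 19 genes for mitochondrial DNA transcription and RNA processing 8 fell and 2 rose (Lonp1, Polg), with a median of -0.16, and with shRNA1 alone 2 fell. Over both hairpins 42.1% fell and 10.5% rose, against 25.9% and 24.1% of genes tested, and 10.5% fell with shRNA1 against 18.4%. Lonp1, a protease of the matrix, was at 44.4 and 47.1 in WT, 62.4 and 58.5 under shRNA1 and 63.2 and 64.8 under shRNA3 (0.44 ± 0.0448, adjusted p = 1.69e-04), and Trmt10c, of mitochondrial ribonuclease P, fell (-0.40, adjusted p = 0.00630, and adjusted p = 0.0647 with shRNA1 alone). Tfam, which packages mitochondrial DNA and starts its transcription, also fell (-0.22, adjusted p = 0.0108, and adjusted p = 0.0789 with shRNA1 alone). RNAs encoded in mitochondrial DNA were not analysed here.

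Of 11 tested regulators of nuclear genes for mitochondria 5 fell (Pprc1, Gabpb2, Max, Nrf1, Gabpb1) and 1 rose (Ppargc1b, 0.27, with -0.04 for shRNA1 and 0.59 for shRNA3). These are 45.5% and 9.09%, against 25.9% and 24.1% of genes tested. Pprc1, a coactivator of NRF1, was at 12.7 and 13.1 FPKM in WT, 9.34 and 8.82 under shRNA1, and 7.85 and 8.57 under shRNA3, all knockdown libraries below WT (-0.53 ± 0.0582, adjusted p = 2.32e-04). Gabpb2, a subunit of GABP, fell as well (-0.44, adjusted p = 5.63e-04), and Nrf1 by less (-0.19, adjusted p = 0.0147). Gabpa, the DNA-binding subunit of GABP, did not pass (-0.14, adjusted p = 0.0595), and neither did Yy1 (0.08, adjusted p = 0.177), Sp1 (-0.11, adjusted p = 0.0724) or Myc (-0.03, adjusted p = 0.469).

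Proteins of the cytosolic ribosome, which makes the mitochondrial ribosomal proteins, had another balance of calls. Of 79 tested genes 46 rose and 2 fell (Rpl7l1, Rps27l) over both hairpins, with a median of 0.13. The shares were 58.2% higher and 2.53% lower, against 24.1% and 25.9% of genes tested. This list was taken by symbol pattern, which also takes in like-named genes whose symbols end in l or l1, and both falls are such genes. The hairpins were far apart: with shRNA1 5 rose (6.33%, against 17.6% of genes tested) with a median of 0.05, and with shRNA3 64 rose (81.0%, against 27.4%) with a median of 0.22. Compared directly, shRNA3 was higher than shRNA1 for 57 of the 79 (72.2%, against 22.0% of genes tested). Their summed FPKM was 32.7 and 33.7 times that of the 77 members in WT, 35.9 and 35.1 times with shRNA1, and 41.5 and 41.2 times with shRNA3. Rps2, for example, rose (0.40, adjusted p = 5.81e-05), and so did Rps27 (0.85, adjusted p = 2.07e-04), which at a mean of 8.80 FPKM lay far below the list's median of 1330. These genes have many near-identical copies, between which reads may be divided. Of 75 nuclear genes for the respiratory chain and the ATP synthase, the complexes to which mitochondrial translation contributes, 24 rose and 10 fell, with a median of 0.03. Their share of rises, 32.0%, was above the 24.1% of genes tested, and their share of falls, 13.3%, below 25.9%. Ndufv3 of complex I rose from 108 and 114 in WT to 183 and 171 under shRNA1 and 187 and 175 under shRNA3 (0.69 ± 0.0461, adjusted p = 2.21e-05). Ndufs5 was called lower over both hairpins (-2.72 ± 0.673, adjusted p = 0.0111) but not with shRNA3 (adjusted p = 0.0525), and its values of 5.0 and 17.1 in WT, 0.002 in both shRNA1 libraries and 0.001 and 5.21 under shRNA3 overlap. The genes Afg3l2, Gatc, Rars2, Tars2, Yars2, Polg, Tfam, Max, Nrf1, Gabpb1, Gabpa, Yy1, Sp1, Myc, Ppargc1b, Malsu1, Rpl7l1, Rps27l, Sars2, Fau and Ncapd2 were named after their values were seen.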

How the data were processed

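RNA of 6 libraries was measured, prepared with a column kit and a stranded mRNA kit per the labels' protocols. The authors deposited one table of gene symbols and values per library. The unit, not written in the tables, was taken as FPKM because the deposited values are not whole and the submitters' processing notes name Cufflinks 2.2.1. Those notes also list TopHat2 2.0.13, Bowtie2 2.2.3, SAMtools 0.1.19 and mm10, with no roles. No source used here gives the annotation, the strand setting or the handling of reads that map several times. FPKM is relative to a library's mapped total, so a rise of abundant genes lowers the others. The tables hold no counts, and absolute depth is unknown.

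Values were turned into log2(FPKM + 1), and the 11079 genes with a mean of at least 1 were fitted with limma 3.58.1 (R 4.3.3), a means model of 3 groups over all 6 libraries with a variance trend (3 residual and 4.96 prior degrees of freedom). Tests were two-sided, with Benjamini-Hochberg adjustment over all genes tested and 0.05 as the threshold, and the fit was tested on simulated data. Folds are ratios of group mean FPKM. No set was tested. Some genes of the lists are not reported here by name. The members and lists were chosen with earlier results of these data known. By rule the text names the 8 largest rises and 8 largest falls called over both hairpins whose sign is shared by each hairpin (4 rises qualified), the 4 largest differences between the hairpins in each direction, the 3 highest and 3 lowest levels per subunit, Mrps30, Mrps18a and Mrps36, and up to 2 called genes of each other list. Alternatives were pseudocounts of 0.1 and 0.5, no filter or a mean of at least 5, 3 scalings, the knockdown libraries as 1 group, a replicate block, subunits by structure, and leaving out each library. Deviations of same-numbered libraries correlated at 0.01 (WT and shRNA1), -0.07 (WT and shRNA3) and 0.20 (shRNA1 and shRNA3). The last value is a weak shared deviation of the knockdown libraries, and the numbers were not taken to pair libraries in the main fit. Coordinates came from GENCODE mouse release 21 on GRCm38 and promoters from RefSeq. Python 3.11.15, pandas 2.3.3, NumPy 2.4.6 and matplotlib 3.10.9 were used.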

Additional observations from a re-analysis of the deposited data

Results flagged for a closer look

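For 16 of the members named by the rule, the change with shRNA3 differed from that with shRNA1 in the direct comparison of the hairpins (limma, Benjamini-Hochberg adjusted p under 0.05; values are shRNA3 minus shRNA1 on the log2 scale). The rule itself picks the 4 largest of these differences in each direction, so the count of 16 is partly a result of selection. Mrpl4, Mrpl38, Mrpl30, Mrpl23, Mrps2, Mrpl3, Mrps12 and Mrpl11 were picked in that way. Among all 77 members 20 were lower and 8 higher with shRNA3, against 20.5% and 22.0% of genes tested. A departure of the members from that background was not tested. Higher with shRNA3 were Mrpl4 (0.63), Mrpl38 (0.44), Mrpl30 (0.44), Mrpl23 (0.34) and Mrps31 (0.18). Lower with shRNA3 were Mrps2 (-0.57), Mrpl3 (-0.46), Mrps12 (-0.42), Mrpl11 (-0.41), Mrpl20 (-0.38), Mrpl13 (-0.31), Mrpl37 (-0.29), Mrps36 (-0.29), Mrps11 (-0.28), Mrps21 (-0.28) and Mrps6 (-0.19). Several of these calls were lost under alternatives: Mrps31 under 7, the replicate block among them (adjusted p of up to 0.116), Mrps11 under 6 (up to 0.223), Mrps6 under 4 (up to 0.185), Mrpl23 under 3, among them leaving out shRNA1 replicate 1 or shRNA3 replicate 1 (up to 0.217), and Mrps36 under 2 (up to 0.0875). Mrpl3, Mrpl11 and Mrpl37 lost theirs without a filter on low values only (0.0514, 0.0724 and 0.0794). The shRNA3 libraries of Mrpl23 were at 56.8 and 47.1 FPKM.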

How the results depend on the processing

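Pseudocounts of 0.1 and 0.5, a mean of at least 5 and median-of-ratios scaling left every count of called members within 1.5 times, and no member named by the rule changed direction past the threshold under any alternative run. The Mrpl minus Mrps median between the hairpins, near 0 throughout, did change sign. Without a filter, 24346 symbols were tested and the falls were 12 over both hairpins, 3 with shRNA1, 18 with shRNA3 and 6 between the hairpins, with 2 rises for shRNA1 and 4 between the hairpins. With the knockdown libraries as 1 group 5 members were lower and 3 higher, and over all genes 798 were higher and 715 lower, so the members' share of falls (6.49%) was at the background (6.45%). With libraries rescaled to the same total, 27 members were lower with shRNA1, and the Mrpl and Mrps medians were -0.14 and -0.26 over both hairpins, -0.11 and -0.20 with shRNA1, and -0.23 and -0.33 with shRNA3. Under quantile normalization the Mrpl median minus the Mrps median was 0.068 for shRNA1 and 0.014 between the hairpins, and by structure it was 0.12 for shRNA3 and 0.014 between the hairpins, against 0.09, -0.01, 0.10 and -0.01. With the replicate number as a block 31 members were lower and 4 higher, as without it. The cause of these shifts was not tested.

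Leaving out 1 library gave 19 to 29 falls over both hairpins, 7 to 14 with shRNA1, 24 to 40 with shRNA3 and 12 to 23 between the hairpins. Rises were 4 to 5, 4 to 7, 5 to 8 and 5 to 10. Counts moved by over 1.5 times without WT replicate 1 (19 falls over both hairpins, 8 with shRNA1), without shRNA1 replicate 1 (4 rises with shRNA1, 5 between the hairpins), without shRNA1 replicate 2 (7 falls with shRNA1), without shRNA3 replicate 1 (5 rises between the hairpins) and without shRNA3 replicate 2 (24 falls with shRNA3, 12 between the hairpins). Mrpl medians ran from -0.11 to -0.068, -0.080 to -0.051, -0.21 to -0.12 and -0.15 to -0.10, and Mrps medians from -0.21 to -0.17, -0.17 to -0.11, -0.31 to -0.20 and -0.14 to -0.059, in the same order of comparisons. The Mrpl minus Mrps median ran from 0.063 to 0.14, 0.028 to 0.11, 0.039 to 0.18 and -0.042 to 0.0052, and without WT replicate 1 it was 0.063, 0.043 and 0.039 against WT. A lone library of a group was assumed to vary like the others. With 2 libraries a group, small changes of low genes such as Mrpl41 could not be told from the spread.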
